A study of Homo sapiens with 4 samples.

Results

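The genes described here are 10 targets of the transcription regulators YAP and SRF, listed by name from general knowledge of their regulation: CCN1, CCN2, THBS1, ANKRD1, AMOTL2, AJUBA and LATS2 for YAP with its partner TEAD, and TAGLN, MYL9 and ACTA2 for SRF with its partner MRTF. They are 10 of the 60483 gene identifiers in the files, and all 10 passed the filter on low counts that left 19027 genes to test. THBS1 entered the list because of its high level in the second control library, so its values are given as a description with no test. The other members were listed with earlier results of these data known, so counts over the list are descriptions and the list as a whole gets no test. The samples were 2 libraries of poly(A)-selected RNA from H9 cells in which SLC35F2, a solute carrier of the cell membrane, was knocked out (KO 1 and KO 2), and 2 libraries from control H9 cells (control 1 and control 2). H9, also called WA09, is an established human embryonic stem cell line, and both groups share it. The labels do not say whether the KO libraries came from 1 clone or several, how the knockout was made, or whether each library is a culture of its own. The p-values below therefore speak only of the spread among these 4 libraries, which may be technical.

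YAP is held in the cytoplasm and marked for destruction by the kinases of the Hippo pathway when cells are crowded or rounded, and enters the nucleus, where it binds DNA through TEAD factors, when cells spread on a stiff substrate. SRF is switched on through MRTF when actin filaments assemble and free actin monomers, which hold MRTF back, become scarce. Both branches therefore read out cell shape, tension and density, and human pluripotent stem cells, which grow as packed epithelial colonies, express genes of both.

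The files held between 27824693 and 37978705 reads assigned to genes per library. SLC35F2 had 12.1 CPM in KO 1 and 9.65 CPM in KO 2, against 41.1 CPM in control 1 and 27.1 CPM in control 2. CPM, the level used throughout, is the read count scaled to a common library size with TMM factors. The 6 markers of pluripotent stem cells had a summed level of 4992 CPM in KO 1 and 3492 CPM in KO 2, against 4682 CPM in control 1 and 4200 CPM in control 2, most of it from LIN28A and DNMT3B. Of the 6, NANOG was lower in both KO libraries, with 46.2 and 19.1 CPM in KO 1 and KO 2, against 61.2 and 64.7 CPM in control 1 and control 2, and LIN28A was higher in both. DNMT3B had 1550.0 and 662 CPM in KO, against 1743 and 1302 CPM in control, and no marker was called. Control 2 had the largest share of alignments outside annotated features, 10.8%, against 4.59% to 8.40% in the other libraries.

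The promoter letters of the members that most separated the groups or the libraries are shown because they hold the TEAD recognition letters GGAATG on either strand, in capitals. Each window runs from 250 bases before to 50 bases after a RefSeq gene start on GRCh38.p14 and is written 5′ to 3′ on the gene's strand. RefSeq's table matched 7 of the 10 members, while CCN1, TAGLN and MYL9 did not match. ACTA1, a gene chosen after its values were seen, is added as its window also holds a CArG box. This is the element that SRF binds, and it is in capitals too.
CCN2 (chr6:131951323-131951622, minus strand): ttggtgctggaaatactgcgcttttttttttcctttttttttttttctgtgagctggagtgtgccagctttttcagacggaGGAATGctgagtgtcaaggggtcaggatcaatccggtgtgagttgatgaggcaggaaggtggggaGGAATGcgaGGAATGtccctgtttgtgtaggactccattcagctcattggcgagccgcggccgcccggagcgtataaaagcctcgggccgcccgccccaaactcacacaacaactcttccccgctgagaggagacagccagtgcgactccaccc
ANKRD1 (chr10:90921038-90921337, minus strand): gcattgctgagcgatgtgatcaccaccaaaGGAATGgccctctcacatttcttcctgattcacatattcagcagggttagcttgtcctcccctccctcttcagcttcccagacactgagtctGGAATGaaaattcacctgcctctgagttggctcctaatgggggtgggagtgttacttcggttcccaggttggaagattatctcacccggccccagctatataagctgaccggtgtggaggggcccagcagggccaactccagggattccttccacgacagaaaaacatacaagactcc
AMOTL2, the inner of 2 starts (chr3:134374398-134374697, minus strand): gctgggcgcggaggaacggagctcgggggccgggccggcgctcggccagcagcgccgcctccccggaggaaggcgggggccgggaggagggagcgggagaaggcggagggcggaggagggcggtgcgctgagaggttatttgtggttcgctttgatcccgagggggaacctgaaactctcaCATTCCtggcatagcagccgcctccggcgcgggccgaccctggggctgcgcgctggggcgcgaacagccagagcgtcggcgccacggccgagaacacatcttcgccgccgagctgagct
THBS1 (chr15:39580829-39581128, plus strand): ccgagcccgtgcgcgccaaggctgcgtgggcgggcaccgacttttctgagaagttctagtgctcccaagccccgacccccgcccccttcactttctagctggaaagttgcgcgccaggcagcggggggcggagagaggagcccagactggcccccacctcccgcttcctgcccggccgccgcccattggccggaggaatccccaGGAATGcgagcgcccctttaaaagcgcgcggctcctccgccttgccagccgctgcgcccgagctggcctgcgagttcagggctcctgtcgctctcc
ACTA1 (chr1:229434045-229434344, minus strand): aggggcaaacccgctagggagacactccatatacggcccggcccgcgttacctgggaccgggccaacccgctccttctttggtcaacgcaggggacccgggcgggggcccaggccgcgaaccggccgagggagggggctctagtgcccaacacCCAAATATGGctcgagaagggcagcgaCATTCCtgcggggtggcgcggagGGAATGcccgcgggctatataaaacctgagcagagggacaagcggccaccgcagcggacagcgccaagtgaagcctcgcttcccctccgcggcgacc

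The CCN2 window holds the TEAD letters 3 times, with first bases at -169, -104 and -95 from the gene start, and ANKRD1 holds them 2 times, at -220 and -128. The inner AMOTL2 window and the THBS1 window hold them once each, at -69 and -46. Of the 10 windows of the 7 matched members, 7 windows hold the letters, among them windows of AJUBA, LATS2 and ACTA2. The windows at the outer starts of AMOTL2, AJUBA and ACTA2 do not hold them. RefSeq lists 35116 windows in all, of which 14% hold the letters at least once, 1.37% at least 2 times and 0.128% at least 3 times. A CArG box without mismatch, searched on both strands, lies in 0 of the 10 member windows and in 1.29% of all windows. The ACTA1 window holds 1, at -97. The window of EGR1, a further SRF target that was scanned but is not printed, holds 2, at -105 and -83. With 1 mismatch allowed, a search added after seeing the data, 3 of the 10 member windows and 18.9% of all windows match. The inner ACTA2 window then matches 2 times, at -121 and -71, and ACTA2 is a gene whose known SRF elements depart from the exact letters. These matches describe the letters only, and the members were named as YAP or SRF targets beforehand.

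CCN2, CCN1 and AMOTL2 were the members with the largest differences after THBS1, and in all 3 the mean was lower in KO. The list was chosen with earlier results of these data known, so the counts of members below describe it only. Of the 9 members other than THBS1, CCN2 and AMOTL2 had both KO values below both control values, as did 16.3% of all genes tested. In 0 of these 9 were both KO libraries above both controls, against 15.8% of all genes, and the other 7 overlapped, as did 67.8% of all genes. The log2 fold change was negative in 7 of the 9, against 47.2% of all genes. In edgeR's quasi-likelihood test 0 of the 9 members passed an adjusted p of 0.05, which 5 of 19027 genes (0.0263%) did. SLC35F2, the knocked-out gene, did not pass this test either (log2 fold change -1.65, adjusted p = 0.58). Both its KO values nevertheless lay below both control values. The absence of a call here therefore does not show that a gene is unchanged. At an unadjusted p under 0.05 edgeR placed 3 of the 9, against 4.06% of all genes, while DESeq2, which called 0.273% of genes, and limma-voom, which called 0%, also called 0 of 9. Their median log2 fold change was -0.30, against 0.029 for all genes tested, and it turned to 0.23 without control 2 and to 0.0015 without KO 1, while it was -1.62 without KO 2 and -0.71 without control 1.

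CCN2 and CCN1 encode secreted proteins of the matrix around cells that bind integrins, and are the most widely used readouts of YAP. CCN2 (ENSG00000118523.5, CTGF in GENCODE, chromosome 6, 131948176 to 131951373, minus strand) had 34.8 CPM in KO 1 and 67.2 CPM in KO 2, against 87.3 CPM in control 1 and 325 CPM in control 2. The groups did not overlap, but the controls lay farther apart than KO 2 and control 1. The means were 51.0 ± 22.9 CPM in KO and 206 ± 168 CPM in control (SD, n = 2 each), a log2 fold change of -2.01 ± 0.61 (SE, 95% interval -3.45 to -0.58, edgeR adjusted p = 0.997). CCN1 (ENSG00000142871.14, CYR61 in GENCODE, chromosome 1, 85580761 to 85583962, plus strand) had 29.7 CPM in KO 1 and 78.9 CPM in KO 2, against 73.4 CPM in control 1 and 309.95 CPM in control 2. Here KO 2 stood just above control 1, so the groups overlapped, and control 2 stood alone. Its log2 fold change was -1.82 ± 0.73 (SE, interval -3.56 to -0.07, edgeR adjusted p = 0.997). Without control 2 the log2 fold changes shrank to -0.77 for CCN2 and -0.43 for CCN1. With 1 KO library left out, CCN2 was called in both cases (adjusted p = 0.00399 without KO 1 and 4.24e-06 without KO 2) and CCN1 only without KO 2 (0.000492, and 0.0686 without KO 1). Those fits take the spread from the controls alone and assume that the single KO library shares it, and they called 5.31% of genes without KO 1 and 0.927% without KO 2. Without control 1 or control 2 the fits called 0 of the 9 members, and 0.0197% and 0.015% of genes.

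**Figure D1:**
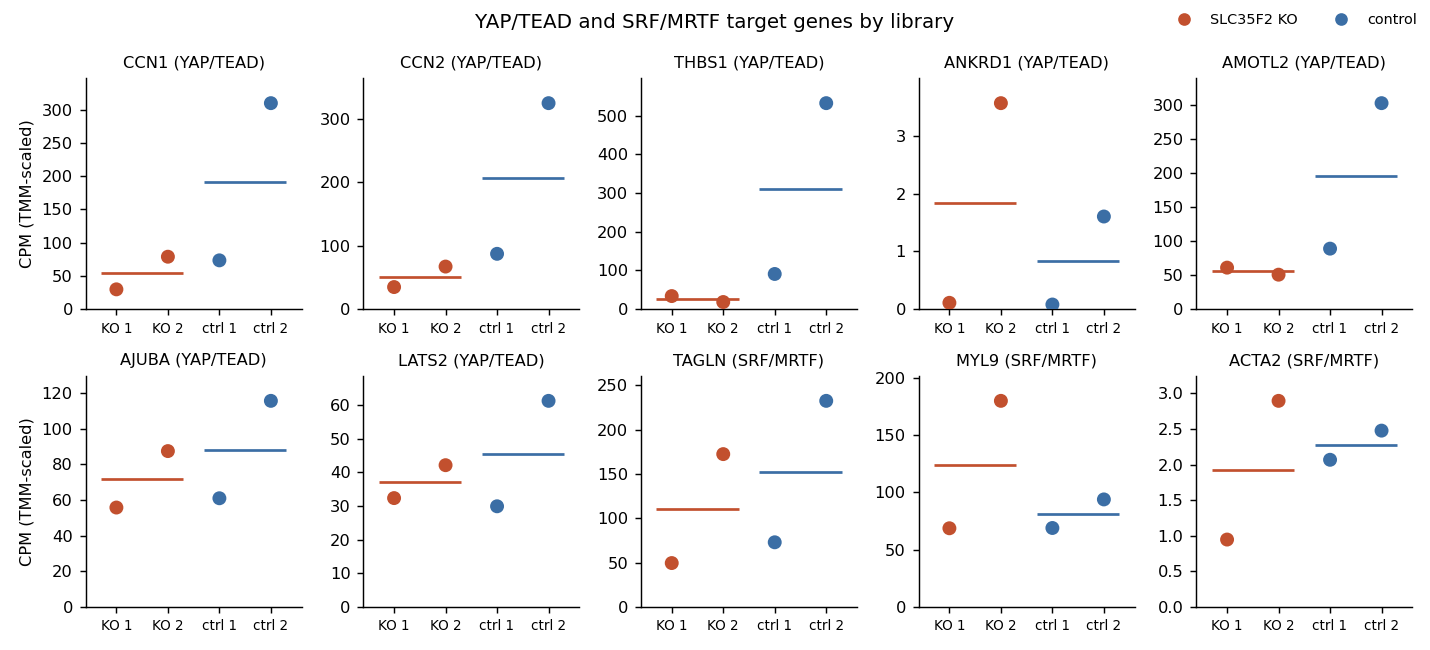
CPM of the 10 target genes in KO 1, KO 2, control 1 and control 2, with 1 point per library and a line at each group mean; each panel has its own linear axis from 0. Control 2 is the highest library in 7 panels, among them that of THBS1, which was chosen for its high level there. KO 2 is highest in the panels of ANKRD1, MYL9 and ACTA2. Both KO points lie below both control points in the panels of CCN2, AMOTL2 and the chosen gene THBS1.

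AMOTL2, AJUBA and LATS2 are YAP targets that themselves act on the Hippo pathway. AMOTL2 encodes an angiomotin, a scaffold of cell junctions that binds YAP. It (ENSG00000114019.13, chromosome 3, 134355874 to 134375479, minus strand) had 60.9 CPM in KO 1 and 50.5 CPM in KO 2, against 88.8 CPM in control 1 and 302 CPM in control 2. The KO libraries lay close together, below both controls. The means were 55.7 ± 7.31 CPM in KO and 196 ± 151 CPM in control (SD, n = 2 each), with a log2 fold change of -1.81 ± 0.53 (SE, interval -3.03 to -0.59, edgeR adjusted p = 0.997). It was called without KO 1 (adjusted p = 0.000149) and without KO 2 (0.00473), while its log2 fold change was -2.43 without control 1 and -0.67 without control 2. Of the AMOTL2 transcript windows of 100 bases 1.37% also occur in the pseudogene RPL39P5, and of the other 9 members no such window is shared with another annotated gene. Only the letters of the transcript strand were compared, so genes that overlap a member on the opposite strand were not looked for.

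AJUBA encodes a LIM-domain protein of cell junctions that binds and restrains LATS kinases. AJUBA (ENSG00000129474.14, chromosome 14, 22971174 to 22982642, minus strand) had 55.8 CPM in KO 1 and 87.5 CPM in KO 2, against 61.0 CPM in control 1 and 116 CPM in control 2. LATS2 encodes a kinase that phosphorylates YAP. LATS2 (ENSG00000150457.8, chromosome 13, 20973032 to 21061547, minus strand) had 32.3 CPM in KO 1 and 42.1 CPM in KO 2, against 29.9 CPM in control 1 and 61.2 CPM in control 2. In both genes the groups overlapped and control 2 was the highest library. Their log2 fold changes were -0.30 for AJUBA (interval -1.14 to 0.54) and -0.29 for LATS2 (interval -1.15 to 0.56), and without control 2 they turned to 0.23 and 0.32.

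ANKRD1 encodes an ankyrin repeat protein best known from heart and skeletal muscle, and is a sensitive readout of YAP in cultured cells. It (ENSG00000148677.6, chromosome 10, 90912096 to 90921276, minus strand) was the least abundant YAP target among the members, with 3 reads in KO 1 and 122 reads in KO 2, against 3 reads in control 1 and 57 reads in control 2. It was thus low in the first and higher in the second library of each group, and the groups overlapped. The means were 1.84 ± 2.45 CPM in KO and 0.842 ± 1.08 CPM in control (SD, n = 2 each). The log2 fold change of 1.22 (interval -1.75 to 4.19) turned to -2.88 without KO 2, and without KO 1 it was 2.12 and was called (adjusted p = 0.0192).

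THBS1 encodes thrombospondin 1, a secreted matrix glycoprotein that can activate latent TGF-beta. It (ENSG00000137801.10, chromosome 15, 39581079 to 39599466, plus strand) had 33.7 CPM in KO 1 and 18.3 CPM in KO 2, against 90.9 CPM in control 1 and 533 CPM in control 2, which is the value it was chosen for. Unlike in CCN1, CCN2, ANKRD1 and the SRF targets, KO 2 was here the lower KO library. The noncoding genes within its span, chosen after their values were seen, had few reads. THBS1-IT1, in an intron on the same strand, had 1 and 2 reads in KO 1 and KO 2, against 1 read in control 1 and 44 reads in control 2. THBS1-AS1, on the opposite strand, had 0 and 1 reads in KO 1 and KO 2, against 10 reads in control 1 and 74 reads in control 2. The log2 fold change of THBS1 was -3.59 with all libraries and -1.81 without control 2. FSIP1, which also overlaps THBS1 on the opposite strand, had 30 and 12 reads in KO 1 and KO 2, against 47 and 26 reads in control 1 and control 2. Since no source used here gives the strand setting of the authors' counting, THBS1 may share reads with THBS1-AS1 and FSIP1. The most abundant other thrombospondin genes, THBS2 and THBS4, had log2 fold changes of -0.27 (interval -1.28 to 0.74) and 0.075 (interval -0.57 to 0.72) with no call.

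The SRF targets TAGLN, MYL9 and ACTA2 are contractile genes best known from smooth muscle, and in each of them the groups overlapped and KO 1 was the lowest library. TAGLN encodes transgelin, an actin-binding protein. TAGLN (ENSG00000149591.15, chromosome 11, 117199321 to 117204782, plus strand) had 49.4 CPM in KO 1 and 172 CPM in KO 2, against 72.8 CPM in control 1 and 232 CPM in control 2. Each group held a low first and a high second library. Its log2 fold change was -0.46 ± 0.70 (SE, interval -2.13 to 1.21, edgeR adjusted p = 0.997). It was 0.19 without KO 1 and 0.61 without control 2, and was called as lower without KO 2 (-1.62, adjusted p = 0.00573). PCSK7, whose 3′ end overlaps that of TAGLN on the opposite strand, had 45.8 and 24.0 CPM in KO 1 and KO 2, against 42.1 and 37.5 CPM in control 1 and control 2.

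MYL9 encodes a regulatory light chain of nonmuscle and smooth muscle myosin. MYL9 (ENSG00000101335.8, chromosome 20, 36541484 to 36551447, plus strand) had 68.6 CPM in KO 1 and 179.8 CPM in KO 2, against 68.8 CPM in control 1 and 93.7 CPM in control 2. KO 2 alone stood apart. The log2 fold change was 0.61 ± 0.43 (SE, interval -0.38 to 1.61, edgeR adjusted p = 0.997). Without KO 1 it was 1.16 and called (adjusted p = 0.0213), and without KO 2 it was -0.24. ACTA2 encodes smooth muscle alpha actin. ACTA2 (ENSG00000107796.11, chromosome 10, 88935074 to 88991339, minus strand) was scarce, with 26 reads in KO 1 and 99 reads in KO 2, against 78 reads in control 1 and 88 reads in control 2. As levels these were 0.946 and 2.90 CPM in KO, against 2.07 and 2.48 CPM in control, and the log2 fold change of -0.20 (interval -1.60 to 1.20) turned to 0.36 without KO 1. FAS, whose 5′ end overlaps that of ACTA2 on the opposite strand, had 132 and 105 reads in KO 1 and KO 2. It had 176 reads in control 1 and 219 reads in control 2. With the strand setting of the counting not given, ACTA2 and FAS may share reads.

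**Figure D2:**
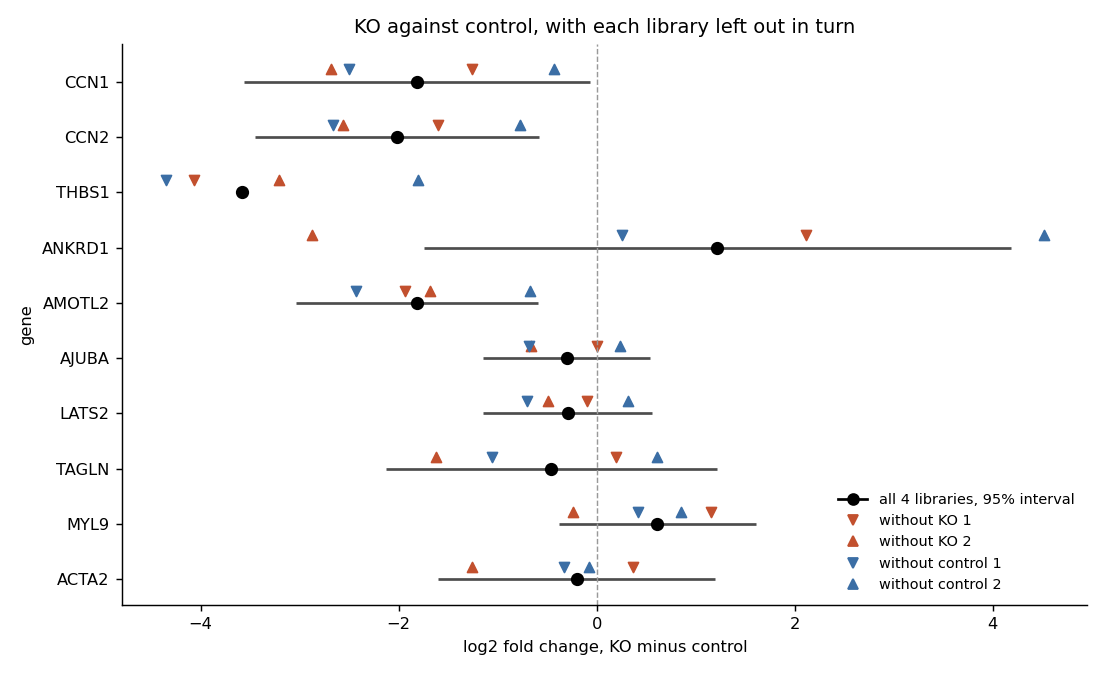
Log2 fold change, KO minus control, of each target gene with all 4 libraries (black point with 95% interval, none for THBS1, which was chosen by its level) and with each library left out (red down and up triangles, without KO 1 and KO 2; blue down and up triangles, without control 1 and control 2). CCN1, CCN2, THBS1 and AMOTL2 stay below 0 in each fit and lie nearest to it without control 2, at -0.43 for CCN1, while ANKRD1 runs from -2.88 to 4.52.

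Libraries of the same group also differed in these genes. Control 2 stood above control 1 in 9 of the 9 members other than THBS1 (51% of all genes), and by at least 2-fold in 6 of them, against 9.33% of all genes tested. The ratio was 4.22 for CCN1, 3.73 for CCN2, 3.41 for AMOTL2, 3.19 for TAGLN and 2.05 for LATS2, and smaller for AJUBA (1.90), MYL9 (1.36) and ACTA2 (1.20). KO 2 stood above KO 1 in 8 of the 9 (50% of all genes), and by at least 2-fold in 5, against 12.9% of all genes. That ratio was 3.49 for TAGLN, 3.06 for ACTA2, 2.65 for CCN1 and 2.62 for MYL9, and 0.83 for AMOTL2. In the SRF targets the ratio was thus larger between the KO libraries than between the controls, for TAGLN only slightly. The YAP target ANKRD1 went the same way (32.7 between KO libraries, 20.2 between controls), from 3 reads in each first library. In CCN1, CCN2, AMOTL2, AJUBA and LATS2 the ratio was larger between the controls. Of the 9 members 6 were highest in control 2 and 6 lowest in KO 1, against 25.8% and 24.8% of all genes. The other 3, ANKRD1, MYL9 and ACTA2, were highest in KO 2, as were 33.4% of all genes. These single-library ratios have no replicate check. As the list was chosen with earlier results of these data known, its counts are descriptions.

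**Figure D3:**
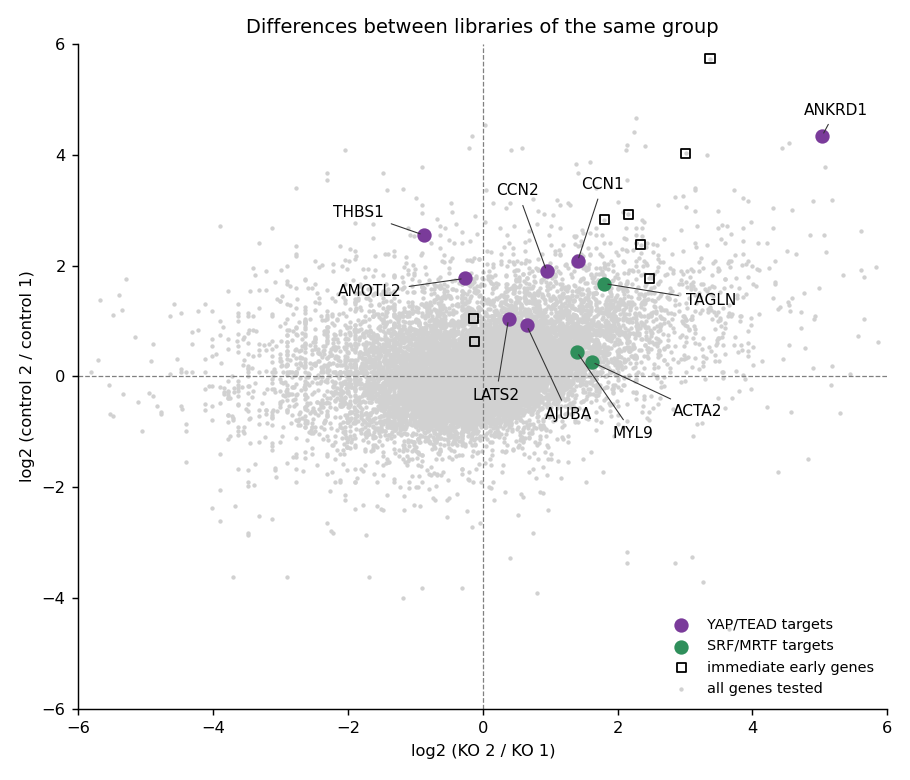
Log2 ratio of KO 2 to KO 1 (horizontal) and of control 2 to control 1 (vertical) for the YAP/TEAD targets (purple), the SRF/MRTF targets (green), 8 immediate early genes (open squares) and all genes tested (grey; 139 genes with 0 reads in a library and 21 beyond the axes are not drawn). All 10 targets lie above the horizontal zero line, among them THBS1, which was chosen for its high level in control 2. AMOTL2 and THBS1 lie left of the vertical one.

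Per length of merged exons, the order of the members differed between the groups. In KO libraries MYL9 had the highest mean level, 44.0 CPM per kilobase, followed by TAGLN (28.3), CCN1 (22.1) and CCN2 (21.8). In controls CCN2 (88.2 CPM per kilobase) and CCN1 (78.1) were highest, followed by TAGLN (39.0), THBS1 (34.0), AMOTL2 (32.7) and MYL9 (28.8). CCN1 and CCN2 exceeded each other by less than their spread in both groups, and AJUBA (14.8), LATS2 (8.17), ACTA2 (0.763) and ANKRD1 (0.425) were the lowest in controls. In KO libraries AJUBA (11.98 CPM per kilobase) stood above AMOTL2 (9.31), LATS2 (6.67) and THBS1 (2.84). With 2 libraries a group these orders are descriptions.

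The wider lists of targets were read from the same fit. Of 17 other YAP targets 16 were tested, of which 4 were lower in both KO libraries, 1 was higher and 0 were called by edgeR (2 at an unadjusted p under 0.05), with a median log2 fold change of -0.22 (-0.37 with library size only). The most abundant were PTPN14, a phosphatase that binds YAP (-0.40, interval -1.12 to 0.31), and the receptor kinase AXL (-0.29, interval -1.09 to 0.51). The 4 lower ones, named after their values were seen, were F3 (-1.16), IGFBP3 (-1.15), NT5E (-0.80) and CRIM1 (-0.47), and the higher one was TGFB2, with 11 and 105 reads in KO 1 and KO 2, against 12 and 14 reads in control 1 and control 2. Of 19 other SRF and actin cytoskeleton targets 1 was lower and 3 were higher in both KO libraries, 0 were called and 0 had an unadjusted p under 0.05, with a median of 0.013 that turned to -0.075 with upper-quartile factors and to -0.13 with library size only. The abundant cytoplasmic actins ACTB (0.27, interval -0.29 to 0.83) and ACTG1 (0.39, interval -0.34 to 1.11) were not called.

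Genes that relay the Hippo signal were also counted. Of 19 Hippo pathway genes 5 were higher and 1 was lower in both KO libraries, with a median log2 fold change of 0.14 (0.015 with library size only) and 0 calls (0 at an unadjusted p under 0.05). YAP1 itself had 232 CPM in KO 1 and 193 CPM in KO 2, against 185 CPM in control 1 and 107 CPM in control 2 (log2 fold change 0.54, interval -0.18 to 1.26). TEAD2, a DNA-binding partner of YAP, had 243 and 178 CPM in KO, against 164 and 93.1 CPM in control (0.71, interval -0.04 to 1.47). For both, control 2 was the lowest library. Read against 16.3% lower and 15.8% higher among all genes, these counts describe the lists only.

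**Figure D4:**
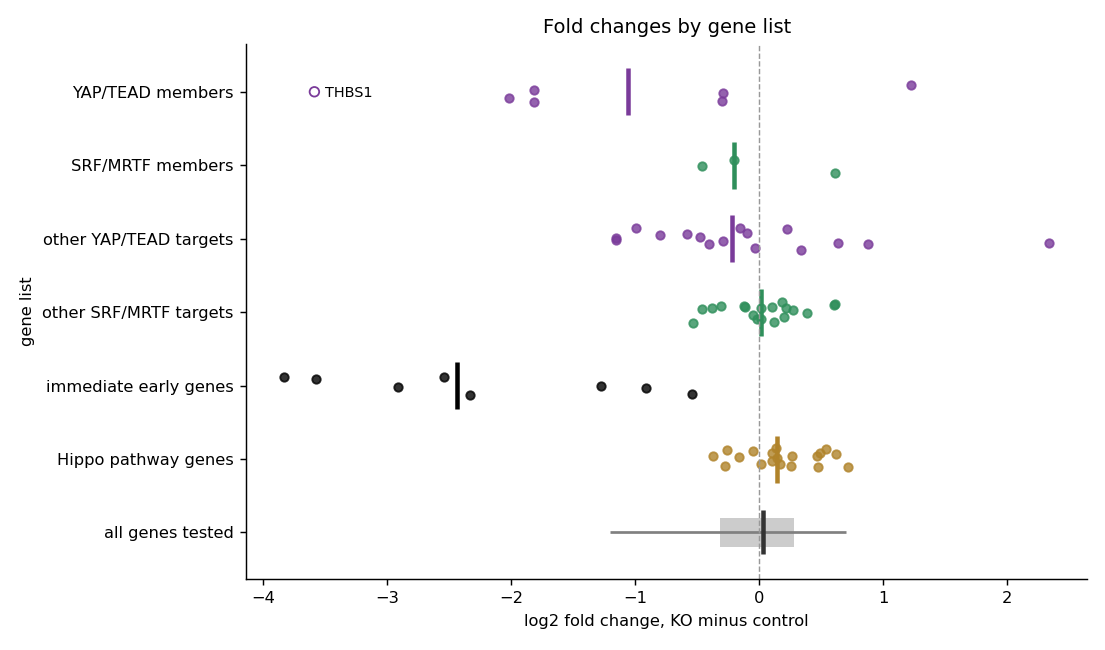
Log2 fold change, KO minus control, of each tested gene (points; small vertical shifts only separate them) with the list median (thick line), for the members, the wider target lists, 8 immediate early genes and the Hippo pathway genes; the bottom row gives the median, the middle 50% (box) and the middle 90% (line) of all genes tested. THBS1, chosen by its level, is an open point outside the list median. The other YAP/TEAD members have a median of -1.06 and the immediate early genes one of -2.44, while the medians of the other lists lie between -0.22 and 0.14.

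SRF also drives immediate early genes, through other partners than MRTF. FOS, an AP-1 subunit, had 5.89 and 20.6 CPM in KO 1 and KO 2, against 24.8 and 176 CPM in control 1 and control 2, and EGR1, a zinc finger factor, had 14.9 and 76.0 CPM, against 85.9 and 446 CPM. In both, as in CCN1, control 2 was highest and KO 1 lowest, and KO 2 stood near control 1.

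Close relatives of the members were compared because reads of similar genes can be split between them. Of TAGLN, MYL9, ACTA2, CCN1 and CCN2, 0% of the transcript windows of 100 bases also occur in another annotated gene. Shorter stretches were not compared, nor were the letters of the opposite strand, so overlap with genes on that strand is not covered. The cytoskeletal light chains MYL12A (log2 fold change -0.11, interval -0.78 to 0.56) and MYL12B (0.0006, interval -0.67 to 0.67) and the transgelins TAGLN2 (-0.33, interval -1.09 to 0.43) and TAGLN3 (0.068, interval -1.05 to 1.19) were not called. Per kilobase of exon MYL12B had 71.2 and 114 CPM in KO 1 and KO 2, against 94.3 and 90.6 CPM in control 1 and control 2. ACTA1, the alpha actin of skeletal muscle, was chosen after its values were seen. It had 4.91 CPM in KO 1 and 8.45 CPM in KO 2, against 22.5 CPM in control 1 and 47.1 CPM in control 2, so that both KO libraries were below both controls (log2 fold change -2.37 ± 0.46, SE, edgeR adjusted p = 0.456). CCN3, another CCN gene, had 7 and 8 reads in KO, against 35 and 19 reads in control (-1.58, interval -3.21 to 0.05).

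The 5 protein-coding genes whose centred log2 CPM over the 4 libraries was nearest to the mean of the 10 members were CSRP1, NUAK2, FGFR3, COL13A1 and PPP1R15A, among 11108 genes averaging 5 CPM or more. Their root mean square differences from that mean ran from 0.0538 for CSRP1 to 0.129 for PPP1R15A on the log2 scale. CSRP1, a LIM protein of the actin cytoskeleton, had 11.9 and 28.2 CPM in KO 1 and KO 2, against 18.7 and 54.5 CPM in control 1 and control 2. NUAK2, a kinase already on the list of other YAP targets, had 13.0 and 24.98 CPM in KO, against 17.8 and 58.2 CPM in control. These ranks depend on THBS1: with the mean taken over the other 9 members, an alternative added after seeing the data, FGFR3 (0.0665), ITGA2B, CSRP1 (0.129), PLAU and MAFF were the nearest 5, so that 2 genes were shared, and NUAK2 ranked 21. Among the members TAGLN was nearest to the mean profile (0.275, and 0.146 without THBS1) and ANKRD1 farthest (1.75 and 1.65).

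Markers of other cell types were followed because TAGLN, ACTA2 and ANKRD1 are also genes of muscle and stromal cells, and in bulk RNA more cells of a type and more RNA per cell cannot be told apart. The 10 fibroblast markers had a summed level of 155 CPM in KO 1 and 793 CPM in KO 2, against 264 CPM in control 1 and 530 CPM in control 2, most of it from COL1A1 and COL1A2. This sum was higher in the second library of each group, as were TAGLN and ANKRD1. The same held for CCN1, CCN2, AJUBA, LATS2, MYL9 and ACTA2, so the likeness is not particular to those genes. PDGFRB had 9.75 and 15.6 CPM in KO, against 12.9 and 24.7 CPM in control. Other markers did not follow the sum: PDGFRA had 65 and 17 reads in KO, against 132 and 163 in control, POSTN had 45 and 16 reads, against 90 and 42, and COL3A1 had 8 and 125 reads, against 50 and 2. DCN had 2 and 0 reads in KO and 0 in both controls, LUM and PRRX1 had at most 4 reads in any library and TWIST1 at most 14. The 7 muscle markers summed to 33.1 and 72.4 CPM in KO, against 37.6 and 80.3 CPM in control, with 2 of 7 lower and 0 higher in both KO libraries. Among all genes tested the matching shares are 16.3% and 15.8%. CNN1, ACTG2 and LMOD1 also stand on the list of other SRF targets. CNN1 alone gave 12.7 and 31.0 CPM of the sum in KO, against 16.6 and 40.4 CPM in control. The muscle sum therefore cannot tell muscle cells from SRF activity. The 4 endothelial markers summed to 10.5 and 11.3 CPM in KO, against 25.5 and 24.3 CPM in control, of which TEK made up 7.31 and 2.52 CPM in KO, against 20.5 and 18.5 CPM in control. The other 3 overlapped between the groups, with log2 fold changes of 0.59 for CDH5 and 0.04 for TIE1 and at most 10 reads for PECAM1. The part of such cells in the levels of the members was not tested.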

How the data were processed

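Polyadenylated RNA of 2 SLC35F2 KO and 2 control libraries of H9 cells was sequenced, and each library was grouped by its title. The authors deposited raw read counts for each gene as whole numbers. HTSeq 0.11.0, STAR 2.6.0a, cutadapt 1.8.1, FastQC 0.11.7 and the build GRCh38 are named in the submitters' processing notes. The labels' protocols mention quantile normalisation, which these counts do not carry. The sources used here give neither annotation release nor strand setting. Reads that fell to no single gene, 14.4% to 20.3% of alignments, were left out. GENCODE 29 named 93.8% of the identifiers.

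Genes were filtered with filterByExpr (minimum count 10) and scaled by TMM. KO was compared with control in edgeR 4.0.16 (R 4.3.3; quasi-likelihood F test, robust, without the legacy option, two-sided, Benjamini-Hochberg over all genes, threshold 0.05). Standard errors are the log2 fold change over the square root of F. The biological coefficient of variation was 36.3%. Chi-square between replicates per degree of freedom was 124 for KO and 54.6 for control, so no library was a copy. The fit was tested on simulated data. DESeq2 1.42.0, limma 3.58.1, other scalings and filters, the replicate block and leaving out each library were alternatives.

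The members, lists and tests were chosen with earlier results of these data known. Named genes are the members, SLC35F2, the 2 most abundant genes of a list without calls (up to 3 called ones otherwise), FOS, EGR1 and the 5 most alike; any other gene was picked after seeing its values. Motifs were searched in RefSeq promoter windows of GRCh38.p14. One other list of pathway genes is not reported here.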

Additional observations from a re-analysis of the deposited data

How the results depend on the processing

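Over 14 alternative settings the log2 fold changes of the 10 members changed sign in 8 cases and kept it in the others, the 8 all with a library left out. AJUBA, LATS2 and TAGLN turned to 0.23, 0.32 and 0.61 without control 2, AJUBA, TAGLN and ACTA2 to 0.0015, 0.19 and 0.36 without KO 1, and ANKRD1 and MYL9 to -2.88 and -0.24 without KO 2. The ranges with a library left out were -0.68 to 0.23 for AJUBA, -0.71 to 0.32 for LATS2, -1.62 to 0.61 for TAGLN, -1.26 to 0.36 for ACTA2, -0.24 to 1.16 for MYL9 and -2.88 to 4.52 for ANKRD1. With a library left out the members' median log2 fold change ran from -1.62 to 0.23, the number of members called from 0 to 4, and the number of genes called from 3 to 1096. Members other than THBS1 with each KO library kept below each control kept then ranged from 2 to 7, and members above from 0 to 3 (alternatives chosen after seeing the data). The 7 arose without KO 2 and the 3 without KO 1, where a single KO library was compared. The number of genes called over all genes was 5 by the main test, 52 with DESeq2, 8 with no filter on low counts, 1 with quantile normalisation and with edgeR's legacy fit, and 0 with upper-quartile factors, library size only, limma-voom, a mean CPM of at least 1 or a threshold of 0.01. With the replicate block 76 of 19027 genes were called, among them CCN1 (adjusted p = 0.00104) and CCN2 (0.000605), so 2 members in place of 0. No label says that a number marks a shared culture, so whether same-numbered libraries were paired is not known. There are only 2 such pairs, and the correlation of the deviations of same-numbered libraries was 0.311. The cause of these shifts was not tested. Scaling by library size only shifted the all-gene median by -0.126, to -0.097 on the log2 scale, and the members' median was then -0.46. ANKRD1 and ACTA2 rest on at most 122 reads in a library, and every comparison on 2 libraries a group.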
